A study of Mus musculus with 4 samples.

Results

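Chromatin at 10 Wnt feedback genes was examined in mouse embryonic stem (ES) cells of 2 strains, namely Rnf43, Znrf3, Axin2, Lgr5, Lgr4, Tcf7, Tcf7l1, Lef1, Nkd1 and Sp5. The genes were taken as a list of names, drawn up with earlier results of these data known. An H3K4me3 region was assigned to a gene if it overlapped the gene body or lay within 20 kb of any of its transcription start sites (TSSs) in mm10. An H3K27ac region was assigned to the gene whose name the deposited annotation gave it, which was not always the gene with the nearest RefSeq TSS. These rules found 28 of the 31315 listed regions, of which 16 carried H3K4me3 and 12 carried H3K27ac, at 10 of 21774 RefSeq protein-coding genes.

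Canonical Wnt signalling stabilises β-catenin, which enters the nucleus and acts through DNA-binding factors of the TCF/LEF family. Several of its target genes encode inhibitors of the pathway, so that a cell that receives the signal also limits it. RNF43 and ZNRF3 are membrane E3 ubiquitin ligases that remove Frizzled receptors from the cell surface, and R-spondins bound to LGR4 or LGR5 block them. AXIN2 is a scaffold of the complex that destroys β-catenin, and NKD1 binds Dishevelled. A GSK3 inhibitor, part of the medium that keeps mouse ES cells naive, stabilises β-catenin directly, and TCF7L1 is the main repressor of this family in these cells.

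ChIP-Seq for H3K4me3, a mark of active promoters, and for H3K27ac, a mark of active promoters and enhancers, was carried out on ES cells from C57BL/6 (B6) mice and from non-obese diabetic (NOD) mice, a strain prone to autoimmune diabetes. ES cells of both strains were derived from blastocysts and grown with inhibitors of MEK and GSK3 (2i medium), so that both carried the same block of GSK3. Each strain and mark had 1 library, without replicates, and the ES cell line behind each library is not given in the sources used here. No statistical test was therefore possible, and each difference given here is between 2 libraries rather than between strains.

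Every list held the regions of a strain that exceeded the other strain, called here NOD-enriched or B6-enriched. A gene with no listed region is therefore not shown to lack the mark, and levels shared by both strains could not be read from these lists. The H3K4me3 libraries held 22750449 tags (aligned reads) for NOD and 14791364 tags for B6, a ratio of 1.54. A tag ratio is given after scaling to these totals with its 95% exact interval, which covers counting error only. The interval does not allow for the listing of regions through a 4-fold minimum. With 0 tags in the other strain, the ratio is given at a floor of 3 tags in that library. This leaves out the counting error of the enriched strain, so the lower limit of the exact interval is given beside it. The lower limits for these 10 regions were below the ratios at the floor, at 2.86 to 10.9. The H3K27ac lists hold a score without counts, and their depth is unknown. Distances are from the centre of a region to the most upstream TSS of the curated transcripts of the gene.

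Each of the 10 genes had at least 1 region. Regions at Rnf43, Axin2, Tcf7, Lef1 and Sp5 were listed for NOD only, and those at Lgr5 and Nkd1 for B6 only. Znrf3, Lgr4 and Tcf7l1 had regions of both strains. In all, 18 regions were NOD-enriched and 10 were B6-enriched. A NOD-enriched H3K4me3 region was found at 7 of the 10 genes, where 34.1% of all protein-coding genes had one by the same rule. B6-enriched H3K4me3 was found at 4 genes, against 23.7% of all genes. NOD-enriched H3K27ac was named to 6 genes, against 18.3% of all genes, and B6-enriched H3K27ac to 2 genes, against 16.8%. Rnf43 is also a gene that the study itself chose to show, and it reports both marks there as increased in NOD. The values at Rnf43 are therefore not independent evidence of a direction. For H3K27ac, 0 regions were named to Rnf43.

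High shares in the NOD-enriched lists were also found at genes chosen as cell type markers. Of these, T and Cdx2 are also among the 87 other Wnt pathway genes described below. Of 16 marker genes of ES cells and early lineages, 12 (75.0%) had a NOD-enriched and 6 (37.5%) a B6-enriched H3K4me3 region by the same rule. NOD-enriched H3K27ac was named to 9 of them (56.2%) and B6-enriched H3K27ac to 3 (18.8%). These shares make no allowance for gene length. NOD-enriched H3K4me3 was found at 7 of 8 ES cell genes and at 3 of 4 mesoderm and endoderm genes. It was found at 2 of 2 neural genes and at 0 of 2 trophoblast genes. B6-enriched H3K4me3 was found at 4 of 8, 1 of 4, 0 of 2 and 1 of 2 of these genes, in the same order. At Esrrb, an ES cell gene, a region 0.120 kb upstream of its nearest TSS held 28 tags in B6 and 9 in NOD. At Zfp42, which encodes a marker of naive ES cells, a region held 1436 tags in NOD and 77 in B6. Near Pou5f1, which encodes the pluripotency factor OCT4, a region 1.70 kb upstream held 110 tags in NOD and 0 in B6. At the promoter of Pou5f1 itself, the study reports similar levels of H3K4me3 and H3K27ac in NOD and B6, and equal OCT4 protein. The part of these marker differences in the values at the Wnt feedback genes was not tested.

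**Figure D1:**
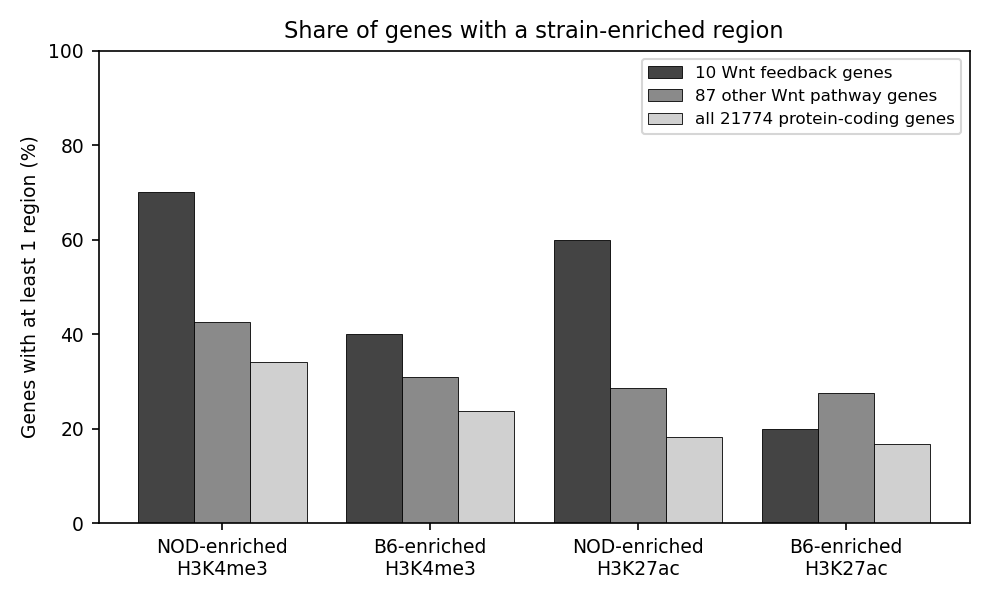
Bars show the percent of genes with at least 1 region in each of the 4 lists, for the 10 Wnt feedback genes, 87 other Wnt pathway genes and all 21774 protein-coding genes. The share of the 10 genes was above that of all genes in each list, by the most in the NOD-enriched lists. The shares make no allowance for window length, which was greater for the 10 genes than for all genes and was not compared for the 87 genes.

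The windows searched were wide. Their median was 105 kb for the 10 genes and 41.9 kb for all protein-coding genes, and a longer window can hold more regions. Per Mb of window, H3K4me3 regions of NOD numbered 8.97 at the 10 genes and 7.04 at all genes, and those of B6 numbered 5.38 and 4.15. With H3K27ac assigned by position as well, regions of NOD numbered 4.48 per Mb at the 10 genes and 3.80 at all genes, and those of B6 numbered 5.38 and 3.52. For H3K4me3 the 10 genes thus stood nearer to the rest by length of sequence than by count of genes. In proportion to all genes, the excess per Mb was largest for B6-enriched H3K27ac and smallest for NOD-enriched H3K27ac. The lead of the NOD-enriched lists by share of genes was not kept in these proportions.

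**Figure D2:**
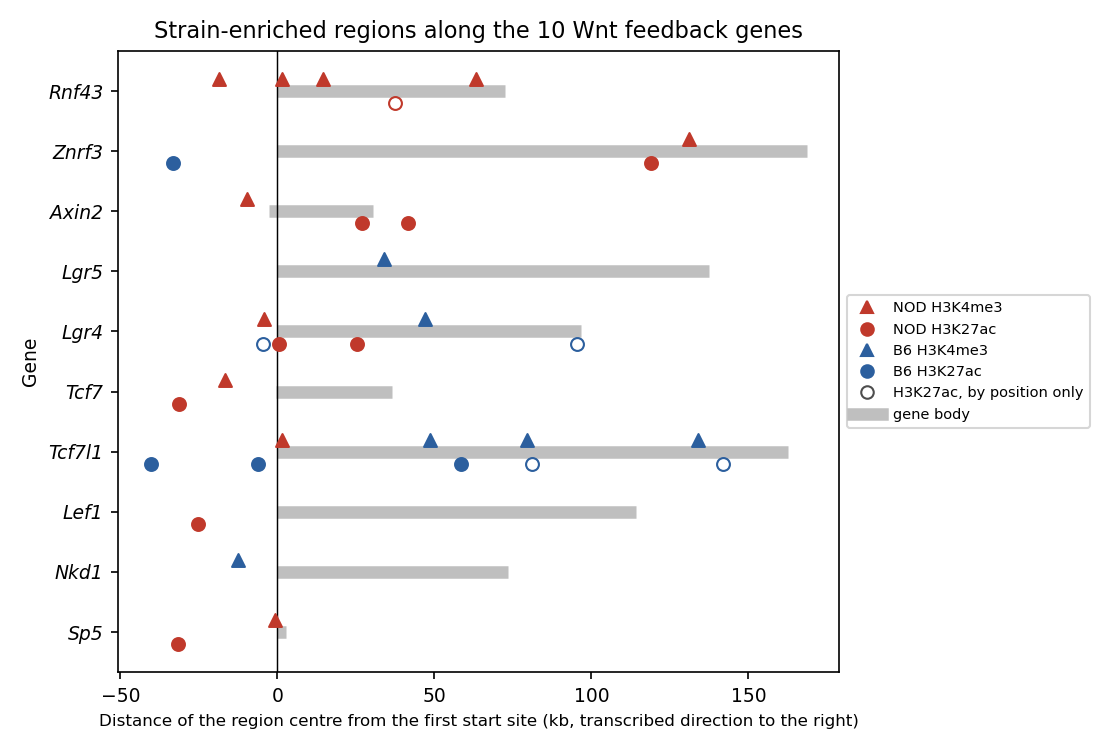
Each row is a gene, with its body in grey and the TSS at 0 on an axis of kb in the direction of transcription. Triangles mark H3K4me3 and circles H3K27ac, red for NOD-enriched and blue for B6-enriched regions, and open circles are H3K27ac regions that the deposited annotation names to another gene. Only NOD-enriched regions lie along Rnf43, while the body of Tcf7l1 holds 1 NOD-enriched H3K4me3 region near the TSS and B6-enriched regions downstream.

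Rnf43 (chr11:87663087-87735539, plus strand) held 4 NOD-enriched H3K4me3 regions and 0 B6-enriched ones. Of all protein-coding genes, 1.77% had 4 or more NOD-enriched H3K4me3 regions. The window of Rnf43 was 92.5 kb, beside a median of 41.9 kb for all these genes, and this share makes no allowance for length. The main region, chr11:87662849-87666058, covered the TSS, began 238 bp before it and ended 2971 bp after it, and held 2 of the 10 exons. It had 415 tags in NOD and 37 in B6, or 182 and 25.0 tags per 10000000 tags of the library. This was a ratio of 7.29 for NOD over B6 (interval 5.20 to 10.5). It ranked 93 of 12077 by NOD tags, in the top 0.770% of its list, and was 3209 bp wide, where 0.381% of the list was 3 kb or wider.

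The other 3 regions at Rnf43 were narrow and had tags from NOD alone. The region at chr11:87644378-87644878, 18.5 kb upstream of the TSS, had 30 NOD tags and 0 B6 tags, 6.50-fold higher at the floor (lower limit 4.97). A region in intron 2, at chr11:87677413-87677913 and 14.6 kb downstream, had 29 and 0 tags, 6.28-fold higher at the floor (lower limit 4.79). The region at chr11:87725950-87726450 in intron 3, 63.1 kb downstream, had 21 and 0 tags, 4.55-fold higher at the floor (lower limit 3.39). The nearest TSS there was that of Supt4a at 11.4 kb. Summed over the 4 regions, NOD had 495 tags and B6 had 37, and by this NOD sum Rnf43 ranked 109 of the 7425 genes with a NOD-enriched H3K4me3 region.

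No H3K27ac region was named to Rnf43. By position, a NOD-enriched H3K27ac region with a score of 10.9 (rank 3592 of 6126) lay in intron 2 at chr11:87700363-87700596. It was 0.582 kb downstream of the second TSS of Rnf43, and the deposited annotation names it to 1110028F11Rik. The 250 bases before the first TSS of Rnf43 and the same stretch of Tcf7l1 are shown because the NOD-enriched H3K4me3 regions with the most tags lay at or near these starts. Sequences are those of the reference genome GRCm38 (mm10), which is from B6, and NOD bases were not read. Capitals mark CG pairs, of which the Rnf43 stretch has 8 and the Tcf7l1 stretch 29. The GC content was 44.4% at Rnf43 and 73.6% at Tcf7l1, beside a median of 52.4% over 32851 RefSeq promoters.
Rnf43, before the TSS, chr11:87662837-87663086 (plus strand): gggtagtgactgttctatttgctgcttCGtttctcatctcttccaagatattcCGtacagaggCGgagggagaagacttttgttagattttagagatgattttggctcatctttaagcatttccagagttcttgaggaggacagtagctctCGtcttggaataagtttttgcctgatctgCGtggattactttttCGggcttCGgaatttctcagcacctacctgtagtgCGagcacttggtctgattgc
Tcf7l1, before the TSS, chr6:72789046-72789295 (minus strand): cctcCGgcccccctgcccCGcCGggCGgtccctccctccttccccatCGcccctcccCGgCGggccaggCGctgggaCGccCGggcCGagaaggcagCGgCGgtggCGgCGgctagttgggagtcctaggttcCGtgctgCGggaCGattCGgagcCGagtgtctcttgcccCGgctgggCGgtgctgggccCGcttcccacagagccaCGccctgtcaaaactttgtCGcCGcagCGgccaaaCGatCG

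Znrf3 (chr11:5276329-5444847, minus strand), the paralogue of Rnf43, had regions of both strains, and 0 of them lay at its TSS. Its NOD-enriched H3K4me3 region, chr11:5313064-5313716 in intron 2, had 30 tags in NOD and 0 in B6, 6.50-fold higher at the floor (lower limit 4.97). It lay 131 kb downstream of the TSS. A NOD-enriched H3K27ac region in the same intron, chr11:5325948-5326181, had a score of 9.23 and ranked 4284 of 6126, and 93.2% of its bases are masked as repeats in the reference. A B6-enriched H3K27ac region with a score of 15.8 (rank 2163 of 5525) lay 33.1 kb upstream at chr11:5477757-5478122. The 2 ligase genes shared NOD-enriched H3K4me3 in their bodies, but the tags at Znrf3 were those of a narrow intronic region and not of a region over the TSS.

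Of the intracellular inhibitors, Axin2 was listed for NOD only and Nkd1 for B6 only. Axin2 (chr11:108917828-108950783, plus strand) had an H3K4me3 region at chr11:108910500-108911000, 9.60 kb upstream, with 25 tags in NOD and 0 in B6. NOD was 5.42-fold higher there at the floor (lower limit 4.09). The nearest TSS was that of the lncRNA Gm46298, at 209 bp. Its 2 NOD-enriched H3K27ac regions had low scores. The region in intron 10, chr11:108947303-108947536, scored 8.11 (rank 4808 of 6126), and the region 41.7 kb downstream of the TSS, chr11:108961969-108962202, scored 10.9 (rank 3592). Nkd1 (chr8:88521342-88594887, plus strand) had a single region. It lay 12.6 kb upstream at chr8:88508542-88509042, with 16 H3K4me3 tags in B6 and 5 in NOD, a ratio of 4.92 for B6 over NOD (interval 1.72 to 17.2). The nearest TSS was that of the lncRNA Gm35076, at 3.77 kb. On chromosome 8 as a whole, 58.6% of protein-coding genes had a NOD-enriched and 32.9% a B6-enriched H3K4me3 region, beside 34.1% and 23.7% over the genome.

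The R-spondin receptor genes Lgr4 and Lgr5 differed in what was listed. Lgr5 (chr10:115450314-115587780, minus strand), which marks stem cells of the gut, had only a B6-enriched H3K4me3 region in intron 1, at chr10:115553492-115553992. It had 17 tags in B6 and 0 in NOD, 8.72-fold higher at the floor (lower limit 6.35), and lay 34.0 kb downstream of the TSS. Lgr4 (chr2:109917647-110014257, plus strand) had regions of both strains. NOD-enriched H3K4me3 at chr2:109913107-109913911, 4.14 kb upstream, had 42 tags in NOD and 5 in B6, which gave a ratio of 5.46 (interval 2.16 to 17.7). B6-enriched H3K4me3 in intron 1, at chr2:109964542-109965042, had 10 tags in B6 and 0 in NOD, 5.13-fold higher at the floor (lower limit 3.45). It ranked 7491 of 7587.

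At the Lgr4 start itself, a NOD-enriched H3K27ac region with a score of 18.8 (rank 2244 of 6126) lay in exon 1, at chr2:109917976-109918209 and 0.445 kb downstream of the TSS. Another in intron 1, at chr2:109942809-109943180, scored 9.35 (rank 4223). The upstream H3K4me3 region lay at the start of the lncRNA Platr8, 190 bp from its TSS. There a B6-enriched H3K27ac region, chr2:109913080-109913342, with a score of 12.2 (rank 2903 of 5525), shared 236 bp with the NOD-enriched H3K4me3 region. Regions that partly overlapped were thus listed for opposite strains. Neither mark was measured within the shared 236 bp alone, so opposite directions over these same bases were not tested. The shared bases are shown because of this overlap, with the 3 CG pairs in capitals.
Lgr4 upstream, at the Platr8 start, chr2:109913107-109913342 (plus strand): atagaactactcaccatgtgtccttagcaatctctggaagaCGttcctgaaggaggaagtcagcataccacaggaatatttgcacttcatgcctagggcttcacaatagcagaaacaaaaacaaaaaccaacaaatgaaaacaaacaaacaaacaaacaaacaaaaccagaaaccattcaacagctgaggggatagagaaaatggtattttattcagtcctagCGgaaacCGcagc

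The DNA-binding factors showed the widest range. Tcf7l1 (chr6:72626371-72789045, minus strand) had the most regions of the 10 genes, 1 NOD-enriched and 6 B6-enriched. The NOD-enriched H3K4me3 region lay at chr6:72787194-72787830, 1.53 kb downstream of the TSS, with 101 tags in NOD and 10 in B6. The ratio was 6.57 for NOD over B6 (interval 3.43 to 14.1), and the region ranked 970 of 12077. The 3 B6-enriched H3K4me3 regions lay further into the gene, in intron 3. At chr6:72740224-72740724, 48.6 kb downstream, B6 had 28 tags and NOD had 0, 14.4-fold higher at the floor (lower limit 10.9). At chr6:72709377-72709877, 79.4 kb downstream, B6 had 30 tags and NOD had 2, a ratio of 23.1 for B6 over NOD (interval 5.85 to 199). At chr6:72655071-72655740, 134 kb downstream, B6 had 37 tags and NOD had 1, a ratio of 56.9 with a wide interval (9.60 to 2308). Tcf7l1 has 2 TSSs, and this last region lay 16.0 kb downstream of the nearer one.

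The first and the last of these B6-enriched regions lay 631 bp and 147 bp from the starts of the lncRNAs Gm31249 and Gm31391, which lie inside Tcf7l1. B6-enriched H3K27ac was also named to Tcf7l1 at 3 places. The region in intron 3 at chr6:72730465-72730872 scored 24.1 (rank 1409 of 5525). The other 2 lay upstream, at chr6:72794931-72795193 with a score of 8.03 and at chr6:72829197-72829459 with a score of 9.61, and the deposited annotation places them in the ERVL repeats MER74A and RMER10A. A further B6-enriched H3K27ac region of 7556 bp and a score of 12.6, named to Gm15401, covered the whole of the H3K4me3 region at 79.4 kb. Over chromosome 6 as a whole, 35.0% of the listed H3K4me3 regions were NOD-enriched, beside 61.4% over the genome, and 35.1% of the H3K27ac regions, beside 52.6%. The part of this chromosome-wide excess of B6 regions in the values at Tcf7l1 was not tested.

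Tcf7 (chr11:52246527-52283383, minus strand), which encodes TCF1, had 2 NOD-enriched regions, both upstream. The H3K4me3 region at chr11:52299477-52299977, 16.7 kb upstream, had 18 tags in NOD and 0 in B6, 3.90-fold higher at the floor (lower limit 2.86). It ranked 11135 of 12077. The H3K27ac region at chr11:52314061-52314829, 31.4 kb upstream, scored 15.7 (rank 2589 of 6126). Lef1 (chr3:131110297-131224357, plus strand) had the H3K27ac region with the highest score of the 10 genes. It lay 25.4 kb upstream at chr3:131084091-131085632, was 1541 bp wide and scored 127, rank 357 of 6126. The column after the score, which has no clear name and is not used here to call a super enhancer, held 1.321 for this region. Of the NOD-enriched H3K27ac regions, 8.46% had a value of 1 or more in it, and of the 8 at these genes only this one did.

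Lef1 was the only member with 0 H3K4me3 regions within the 20 kb rule. However, a NOD-enriched H3K4me3 region lay just outside it, at chr3:131085089-131085714 and 24.9 kb upstream. It overlapped the H3K27ac region by 544 bp and had 76 tags in NOD and 7 in B6, which gave a ratio of 7.06 (interval 3.26 to 18.2). This was the only place at the 10 genes where a NOD-enriched H3K27ac region shared bases with NOD-enriched H3K4me3. Within the rule, 5 genes had NOD-enriched regions of both marks, and at each of them the marks lay apart.

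Sp5 (chr2:70474923-70477726, plus strand), a direct β-catenin target that encodes a zinc finger factor, is the shortest of the genes. Its H3K4me3 region at chr2:70473937-70474437, 0.736 kb upstream, had 23 tags in NOD and 0 in B6, 4.98-fold higher at the floor (lower limit 3.74). It ranked 9116 of 12077. The H3K27ac region of Sp5 lay 31.5 kb upstream at chr2:70443071-70443728 and scored 20.2 (rank 2112 of 6126). With those of Rnf43 and Tcf7l1, the H3K4me3 region of Sp5 was 1 of 3 NOD-enriched ones centred within 2 kb of a TSS of these genes. Of all protein-coding genes, 11.2% had such a region. Of the 6 B6-enriched regions, 0 lay within 2 kb of a TSS of these genes, where 6.36% of all genes had one.

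**Figure D3:**
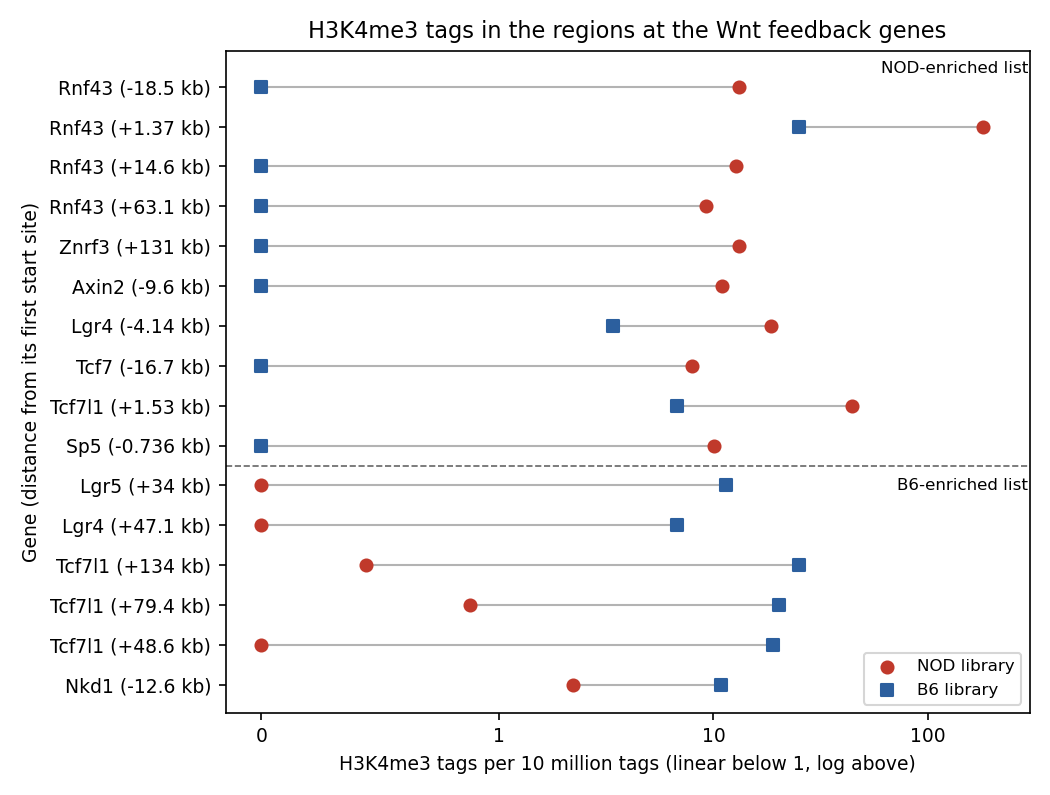
Each line is an H3K4me3 region, labelled with its gene and its distance from the TSS, and the points are the tags per 10000000 in the NOD library (red circles) and the B6 library (blue squares), on an axis that is linear below 1 and logarithmic above. The main Rnf43 region stands apart at 182 in NOD and 25.0 in B6, while 10 of the 16 regions have 0 tags in the other strain.

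Apart from the main Rnf43 region and that of Tcf7l1, the H3K4me3 regions were small. The NOD-enriched regions had 18 to 415 NOD tags with a median of 29.5, beside 30.0 for the whole list. The B6-enriched regions had 10 to 37 B6 tags with a median of 22.5, beside 20 for the list. The other strain had 0 tags in 7 of the 10 NOD-enriched regions, where 34.9% of the list had none. It had 0 tags in 3 of the 6 B6-enriched regions, where 37.7% of the list had none. The B6 library was the smaller, so that by depth alone 0 tags there is a weaker statement than 0 tags in NOD. However, reads of both strains were mapped to a reference genome that is from B6. Any loss of NOD tags through this was not tested. Of the 10 NOD-enriched regions 6 had the smallest width of 500 bp, as did 72.8% of the list. The median score of the 8 NOD-enriched H3K27ac regions was 13.3, beside 12.9 for the list, and that of the 4 B6-enriched regions was 12.7, beside 12.8. Except for Lef1, the members thus had H3K27ac scores of a usual size for these lists.

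**Figure D4:**
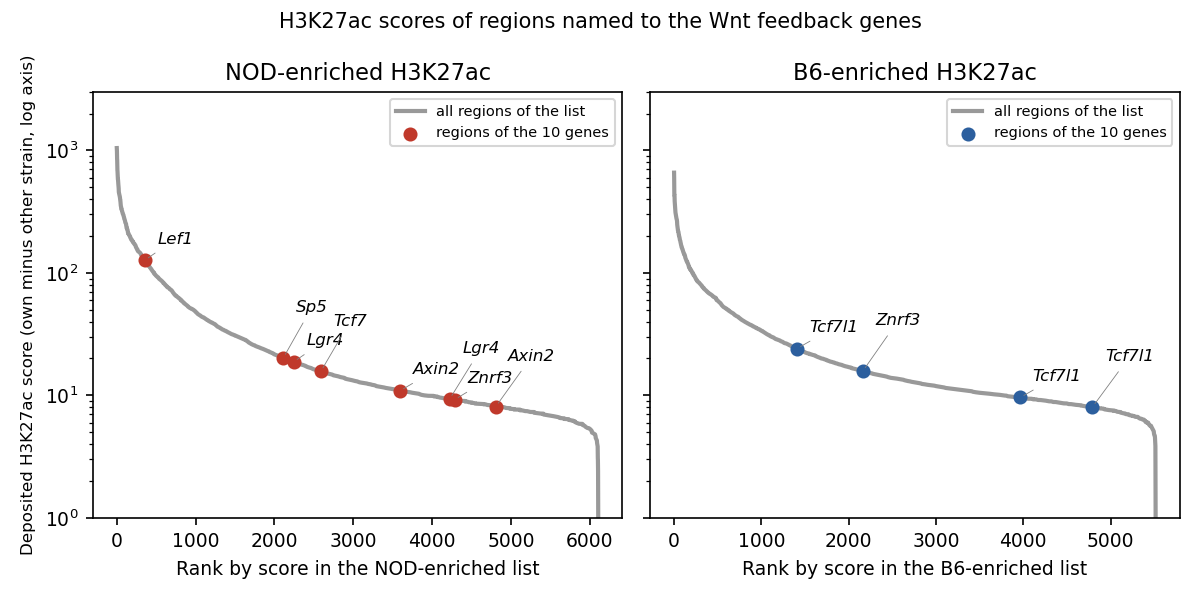
Grey curves show the deposited H3K27ac score on a log axis against rank for all regions with a score above 0, and points mark the regions named to the 10 genes. Lef1 stands at rank 357 of 6126 with a score of 127, and the other points lie at ranks of 1409 or beyond, with scores of 24.1 or less.

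TCF/LEF factors bind DNA at sites with the core CTTTGAT, which was searched on both strands of each region. It was found in 3 of the 8 NOD-enriched H3K27ac regions, those of Axin2 in intron 10, Tcf7 and Lef1, where 14.6% of all regions in that list held it. It was found in 1 of the 4 B6-enriched H3K27ac regions, that of Tcf7l1 in the RMER10A repeat, beside 13.7% of the list. Of the H3K4me3 regions, 1 of 10 NOD-enriched ones held it, in intron 2 of Rnf43, beside 10.4% of the list, and 0 of 6 B6-enriched ones, beside 8.61%. With the shorter core CTTTGA, which every match of the longer one also holds, 4 of the 8 NOD-enriched H3K27ac regions had a match, beside 34.5% of the list. Longer regions hold more matches. In the 300 bases around each centre, the same count of 3 NOD-enriched H3K27ac regions held the core, beside 5.21% of the list. It was held there by 1 of the 4 B6-enriched H3K27ac regions, beside 4.69% of the list. Of the H3K4me3 regions, 0 of the 10 NOD-enriched ones held it there, beside 4.88%, and 0 of the 6 B6-enriched ones, beside 4.89%. A match is a string of letters in the reference and does not show binding.

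RefSeq promoter sequences of 8 of the 10 genes were matched, with 13 start sites in all. The core was found in the 250 bases before 1 of the 13, that of Sp5, where 3.21% of all promoters held it. The main Rnf43 region held 0 matches in its 3210 bases. The stretches with a match are shown with the core in capitals, as CTTTGAT or, on the other strand, as ATCAAAG, because they are the places where this core falls within the strain-enriched regions or promoters of its own feedback genes.
Rnf43 intron 2, NOD-enriched H3K4me3, chr11:87677413-87677712 (plus strand): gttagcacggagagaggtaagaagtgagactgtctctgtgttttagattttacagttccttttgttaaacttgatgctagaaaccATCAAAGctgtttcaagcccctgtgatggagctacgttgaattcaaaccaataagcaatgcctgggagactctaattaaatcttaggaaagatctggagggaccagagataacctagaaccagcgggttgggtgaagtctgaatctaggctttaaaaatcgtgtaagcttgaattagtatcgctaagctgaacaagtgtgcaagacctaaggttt
Axin2 intron 10, NOD-enriched H3K27ac, chr11:108947303-108947536 (plus strand): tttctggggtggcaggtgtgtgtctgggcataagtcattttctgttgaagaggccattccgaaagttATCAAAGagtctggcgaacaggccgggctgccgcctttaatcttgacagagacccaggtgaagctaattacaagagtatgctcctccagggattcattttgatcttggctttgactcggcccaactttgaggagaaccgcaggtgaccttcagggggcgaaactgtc
Tcf7 upstream, NOD-enriched H3K27ac, chr11:52314366-52314665 (plus strand): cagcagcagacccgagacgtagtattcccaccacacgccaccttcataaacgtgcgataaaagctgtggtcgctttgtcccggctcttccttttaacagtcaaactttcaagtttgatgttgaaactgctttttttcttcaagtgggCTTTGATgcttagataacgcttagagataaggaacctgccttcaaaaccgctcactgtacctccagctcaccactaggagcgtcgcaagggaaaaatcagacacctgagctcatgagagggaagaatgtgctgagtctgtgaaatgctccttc
Lef1 upstream, NOD-enriched H3K27ac, chr3:131084762-131085061 (plus strand): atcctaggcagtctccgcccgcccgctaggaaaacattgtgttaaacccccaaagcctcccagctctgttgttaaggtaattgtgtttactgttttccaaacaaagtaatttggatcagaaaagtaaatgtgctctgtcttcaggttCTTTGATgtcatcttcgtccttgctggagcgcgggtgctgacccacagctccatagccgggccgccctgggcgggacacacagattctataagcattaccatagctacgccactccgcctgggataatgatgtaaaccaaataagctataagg
Tcf7l1 upstream, B6-enriched H3K27ac, chr6:72829197-72829459 (plus strand): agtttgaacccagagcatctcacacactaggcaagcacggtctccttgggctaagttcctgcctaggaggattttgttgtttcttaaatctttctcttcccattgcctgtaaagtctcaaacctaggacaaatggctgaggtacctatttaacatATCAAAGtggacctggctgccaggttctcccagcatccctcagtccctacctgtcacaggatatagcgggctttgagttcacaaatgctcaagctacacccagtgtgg
Sp5, before the TSS, chr2:70474673-70474922 (plus strand): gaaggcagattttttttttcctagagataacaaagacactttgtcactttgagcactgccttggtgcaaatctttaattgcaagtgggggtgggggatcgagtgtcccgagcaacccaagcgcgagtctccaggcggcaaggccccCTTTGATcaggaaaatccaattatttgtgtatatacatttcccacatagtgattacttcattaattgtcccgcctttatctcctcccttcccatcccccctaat

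Between 20 and 50 kb of a TSS, outside the rule, 6 further NOD-enriched and 2 further B6-enriched H3K4me3 regions were listed. The largest was 49.6 kb upstream of Znrf3, at chr11:5493983-5494953, with 152 tags in NOD and 20 in B6, which gave a ratio of 4.94 (interval 3.09 to 8.32). Rnf43 had a NOD-enriched region 23.7 kb upstream with 39 and 5 tags. It also had a B6-enriched region 48.7 kb from its nearest TSS, near Mir142, with 23 tags in B6 and 7 in NOD, so that the NOD-only listing of Rnf43 held within the rule only. Axin2 likewise had a B6-enriched region 26.0 kb upstream of its nearest TSS, with 22 tags in B6 and 8 in NOD.

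Of 87 other genes of the Wnt pathway, 37 (42.5%) had a NOD-enriched H3K4me3 region and 27 (31.0%) a B6-enriched one. NOD-enriched H3K27ac was named to 25 of them (28.7%) and B6-enriched H3K27ac to 24 (27.6%). The share was above that of all genes in each of the 4 lists. Window lengths of the 87 genes were not compared with those of all genes, so these shares make no allowance for length. The NOD-enriched H3K4me3 regions with the most tags were at Wnt4, a ligand, with 146 tags in NOD and 19 in B6, at Sp8, a relative of Sp5, with 124 and 20, and at the start of Wnt6, a ligand, with 121 and 17, a region that also touches the 20 kb window of Wnt10a. None reached the 415 tags of Rnf43. The highest B6-enriched H3K4me3 regions were at Sfrp1, a secreted Wnt inhibitor, with 104 tags in B6 and 35 in NOD, at Tcf7l2, a TCF factor, with 68 and 22, and at Dvl3, a Dishevelled, with 38 and 0.

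For H3K27ac the highest NOD-enriched scores among the 87 genes were 234 at Wif1, a secreted inhibitor, 139 at Csnk1e, a kinase of the pathway, and 68.1 at Tnks, which marks Axin for destruction. The highest B6-enriched scores were 112 at Fzd7, a Frizzled receptor, 86.7 at Tcf7l2 and 80.6 at Sfrp1. The score of 127 at Lef1 was below those of Wif1 and Csnk1e and above that of Tnks.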

How the data were processed

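ChIP-Seq reads of 4 libraries were mapped to mm10 with bowtie2 and analysed with HOMER, according to the methods of the study, while the submitters' processing notes list mm9, STAR 2.2.0c and CASAVA 1.8.2. The files were read as mm10, since 89.4% of the NOD and 89.2% of the B6 deposited H3K27ac distances lay within 10 bp of those to RefSeq GRCm38 TSSs. Per the file headers, the library of the other strain served as the background of each list, at a 4-fold minimum and 500 bp for H3K4me3. The deposited tag count of a region is whole in the B6 list. In the NOD list it is scaled, as is the deposited signal per 10000000 tags, and whole tags were recovered to within 0.0769. The deposited fold is the scaled tag ratio where both strains have tags, and where the other strain has 0 it rests on a small value set by the authors and was not printed. The deposited H3K27ac score is the difference in signal between the strains, with a scale that is not given in the sources used here. Deposited p-values compare 2 libraries and were not used.

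Regions were assigned to genes with a 1 bp minimum overlap (Python 3.11.15, pandas 2.3.3). Exact conditional binomial intervals at 95% were computed with scipy 1.17.1. They were tested on simulated counts without the 4-fold minimum, so their coverage for regions listed through it was not tested. All 10 genes and each of their regions were described. Of the wider Wnt list, the 3 genes with the highest region in each list were named, and other genes only as the nearest to a region. The genes and lists were chosen with earlier results of these data known. Other windows, minimum tags, folds, scores, transcripts, scalings and motif settings were tried as alternatives.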

Additional observations from a re-analysis of the deposited data

How the results depend on the processing

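With 1 library for each strain and mark, no spread between samples is known, and the H3K27ac depth is not given. No paired analysis was possible because each strain and mark had a single library. Of 66 values under alternatives, each taken singly, 53 moved by no more than 1.5 times or stayed within their counting interval. Among them were all 22 values for tag ratios of single regions and those for the median ratio of own over other strain. These ratios could hardly move, since the deposited fold is the same scaled ratio and the other scaling shifted them by 1.01 times. They therefore say little about how stable the results are. A minimum of 30 tags left 4 genes with 5 NOD-enriched H3K4me3 regions and 1 gene (Tcf7l1) with 2 B6-enriched ones. A 50 kb window gave 16 NOD-enriched H3K4me3 regions. Leaving out gene bodies beyond 20 kb of a TSS left 2 genes (Nkd1 and Tcf7l1) with 2 B6-enriched H3K4me3 regions. A minimum H3K27ac score of 20 left 2 NOD-enriched regions at 2 genes (Lef1 and Sp5) and 1 B6-enriched region at 1 gene (Tcf7l1). Assigning H3K27ac by position gave 5 NOD-enriched regions, at Axin2, Lgr4, Rnf43 and Znrf3, since those of Lef1, Sp5 and Tcf7 lay beyond 20 kb, and 6 B6-enriched regions, so that the excess of NOD (8 to 4 by name) was not kept. With the 6 letters CTTTGA in place of 7, the member regions with a match went from 5 to 14, and 31.8% to 36.3% of each whole list held a match. Each of these alternatives changed which regions or matches were counted.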
